A study of Mus musculus with 12 samples.

Results

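Albumin (Alb), transthyretin (Ttr), the apolipoproteins Apoa1, Apoa2, Apoa4 and Apob, the fibrinogen chains Fga and Fgb, the bikunin precursor Ambp and fetuin-A (Ahsg) are plasma proteins that the liver secretes and that thymic epithelial cells (TEC) also transcribe. These 10 genes were taken by symbol from a list of hepatic plasma proteins, out of 34547 genes measured, and all 10 were found in the transcript-level files and in the normalised table of the series. They were followed in 12 RNA-seq libraries of sorted TEC from thymi of wild-type (WT) C57 black 6 mice and of Aβ0/0 mice. In Aβ0/0 mice the gene of the MHC class II β chain, H2-Ab1, is disrupted and MHC class II is lacking. There were 3 libraries each of WT cortical TEC (cTEC), Aβ0/0 cTEC, WT medullary TEC (mTEC) and Aβ0/0 mTEC, and every library came from a pool of 5 to 10 animals aged 4 to 6 weeks. The sort took CD45-negative, EpCam-positive cells, cTEC as Ly51-positive and mTEC as binding the lectin UEA1. The mTEC gate therefore mixes Aire-expressing and other mTEC, and a lower level of a gene in a library can mean fewer cells that transcribe it or less RNA in each, which cannot be told apart in bulk RNA.

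Hepatocytes make these proteins in quantity and release them into blood. Albumin and transthyretin carry small molecules and hormones, apolipoproteins form the protein part of lipoprotein particles, and the Aα, Bβ and γ chains assemble into fibrinogen, the precursor of the clot. Mature mTEC transcribe many genes that are otherwise restricted to other organs, a process called promiscuous gene expression, so that developing T cells meet the antigens of those organs. The nuclear protein Aire drives much of it, and each of the genes concerned is usually transcribed by a small share of mTEC at a time. cTEC, which display peptides for positive selection, express few such genes.

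Promoter sequences are shown for 3 genes whose level differed between genotypes in mTEC (Alb, Apoa2 and Fga) and for Apoa1, whose level did not pass the test, so that the letters just before the start of each gene can be read against the values below. Each stretch holds the 150 bases before the first annotated start, in GRCm38.p6 from RefSeq, written 5′ to 3′ on the strand of the gene, which was the plus strand for all 4. The stretches are chr5:90460720-90460869 for Alb, chr1:171224904-171225053 for Apoa2, chr3:83025926-83026075 for Fga and chr9:46228430-46228579 for Apoa1. Capitals mark matches on either strand to 1 of 4 motifs, the HNF4 half-site CAAAGT, the FOXA motif TGTTTAC, the C/EBP motif TTGCNNAA (N is any base) and the TATA box TATAAA.
Alb: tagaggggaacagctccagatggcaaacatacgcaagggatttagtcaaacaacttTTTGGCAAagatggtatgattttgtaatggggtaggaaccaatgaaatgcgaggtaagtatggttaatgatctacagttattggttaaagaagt
Apoa2: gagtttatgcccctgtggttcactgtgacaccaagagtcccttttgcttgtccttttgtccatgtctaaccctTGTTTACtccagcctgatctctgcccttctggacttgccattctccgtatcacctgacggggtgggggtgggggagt
Fga: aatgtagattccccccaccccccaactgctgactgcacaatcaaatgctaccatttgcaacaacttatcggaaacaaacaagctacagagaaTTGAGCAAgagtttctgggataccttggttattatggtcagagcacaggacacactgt
Apoa1: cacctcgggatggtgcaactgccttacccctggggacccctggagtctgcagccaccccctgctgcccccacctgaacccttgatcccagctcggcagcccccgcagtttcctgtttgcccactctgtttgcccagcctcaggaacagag

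The FOXA motif began 77 bases before the start of Apoa2. A C/EBP match on the opposite strand began 94 bases before the start of Alb and 58 bases before that of Fga, and the Apoa1 stretch held no match. Over the full 250 bases before the RefSeq start, the C/EBP motif was found in 5 of the 9 promoters of these genes that were scanned (Alb, Fga, Fgb, Apob and Ahsg), against 9.56% of 32851 mouse promoters of the same length. The HNF4 half-site was found in 3 of 9 (Alb, Apoa4 and Ahsg) against 12.6%. The FOXA motif was found in 1 of 9 (Apoa2) against 3.17%, and the TATA box in 2 of 9 (Apoa2 and Apob) against 12.4%. HNF4, FOXA and C/EBP proteins are among the factors that direct liver gene transcription, and a match describes the letters only.

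The estimated counts summed to between 21.7 and 36.1 M per library. The counts of a gene are given as estimated by the authors, and levels between samples as CPM, which are counts scaled to the library size with TMM over the 12 libraries. Levels of different genes are compared only as TPM, kallisto's measure of abundance, which takes transcript length into account. H2-Ab1 was lower in Aβ0/0 than in WT libraries without overlap in both subsets, at between 2469 and 3541 TPM against 11506 to 11966 TPM in mTEC. Aire was at 626, 275 and 243 TPM in WT mTEC and at 111, 56.0 and 65.2 TPM in Aβ0/0 mTEC, with a log2 fold change of 2.17 (SE 0.36, adjusted p = 0.0352, edgeR). The study lists fewer sorted mTEC for each Aβ0/0 library than for any WT library, so in mTEC cell number and genotype cannot be told apart. It also lists fewer cTEC than mTEC for every sorting, so cell number and subset cannot be told apart either. In cTEC the cell numbers of the genotypes overlap, but each WT sorting has more cTEC than the Aβ0/0 sorting of the same number. Of 12 identifiers of mTEC marker genes, 11 had more than 3 counts in every WT mTEC library.

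The first question was where these antigens are transcribed in the normal thymus. All 10 genes were detected with more than 3 counts in all 3 WT mTEC libraries, and each of them was higher in every WT mTEC library than in every WT cTEC library, which held for 29.5% of all 18667 genes tested. In 9 of the 10 the difference passed the threshold, always with mTEC higher (edgeR quasi-likelihood test, adjusted p under 0.05), where 18.0% of those genes were called in that direction. Apob was the exception.

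In WT mTEC the order of TPM was led by 3 apolipoproteins. Apoa4, a component of intestinal and hepatic lipoproteins, was at 133 ± 30.0 TPM (SD, n = 3), Apoa1, the main protein of high-density lipoprotein, at 104 ± 26.2 TPM, and Apoa2, its companion on the same particles, at 80.2 ± 21.6 TPM. Their ranges over the libraries overlapped from 1 gene to the next. Together they made up 86.1% to 88.9% of the summed TPM of the 10 genes in each WT mTEC library. Ambp, which encodes the precursor of α1-microglobulin and of the protease inhibitor bikunin, followed at 15.4 ± 4.17 TPM and Ttr at 14.5 ± 4.64 TPM, below every value of Apoa2 and with overlapping ranges between them. The other 5 genes lay below every value of Ttr. Fgb was at 4.15 ± 0.61 TPM, Fga at 3.32 ± 2.40, Alb at 2.81 ± 0.75, Apob at 2.29 ± 1.63 and Ahsg at 1.33 ± 0.57, and neighbours in this order overlapped. Albumin, the most abundant protein of plasma, thus ranked 8 of 10 in WT mTEC.

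The carriers differed in what cTEC held. Alb had 119, 134 and 117 counts in the WT mTEC libraries and 0 counts in each WT cTEC library, where a library at 0 counts allows up to 3 counts. Measured against that floor, Alb was at least 37.7-fold higher in mTEC (adjusted p = 0.00371, edgeR). Ttr, the carrier of thyroxine and retinol-binding protein, was at 15.1, 9.64 and 12.3 CPM in WT mTEC and at 0.210, 0 and 1.22 CPM in WT cTEC. Its log2 fold change was 4.67 (SE 1.31, adjusted p = 0.0329, edgeR).

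Apoa1, Apoa2 and Apoa4 had counts in every WT cTEC library, unlike Apob. Apoa1 had levels of 86.0, 66.0 and 68.6 CPM in WT mTEC against 1.01, 3.15 and 2.03 CPM in WT cTEC, a log2 fold change of 5.17 (SE 0.45, adjusted p = 0.000436, edgeR). Apoa2 was at 28.2, 21.0 and 21.1 CPM against 0.335, 0.406 and 0.689 CPM, and its log2 fold change was 5.62 (SE 0.50). Apoa4 was at 198, 184 and 149 CPM against 12.03, 7.81 and 6.12 CPM, with a log2 fold change of 4.39 (SE 0.31). Both were called (adjusted p = 0.000459 and 0.000251, edgeR). Apob, the scaffold of chylomicrons and of very-low-density lipoprotein, was at 22.4, 11.5 and 9.77 CPM in WT mTEC. In WT cTEC it had 1, 131 and 0 counts, so that a single cTEC library carried nearly all of it. The log2 fold change of Apob was 3.44 (SE 1.60, adjusted p = 0.161, edgeR). Without WT cTEC replicate 2 it was 9.20 with an adjusted p of 0.00140, within a range of 0.00140 to 0.391 over the alternatives.

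The fibrinogen chains and both inhibitors were close to or at 0 in WT cTEC. Fga had 118, 320 and 45 counts in WT mTEC, Fgb had 276, 486 and 338 counts, and both had 0 in all WT cTEC libraries, which made them at least 47.5-fold and at least 109-fold higher in mTEC. Ambp had 236, 386 and 501 counts in WT mTEC and 1 count in WT cTEC in all, a ratio of scaled counts of 1028 with a 95% interval of 184 to 40630 that covers counting error only. Ahsg, a calcium-binding inhibitor of mineral deposition, had 37, 26 and 61 counts in WT mTEC and none in WT cTEC, at least 12.6-fold more. The adjusted p values were 0.00693, 0.00112, 0.000645 and 0.00729 in that order (edgeR). cTEC and mTEC of a given number and genotype came from the same sorting, and with the pool as a block Ahsg no longer passed (adjusted p = 0.0531, range over the alternatives 1.73e-05 to 0.0978). The call of Ttr was lost when WT cTEC replicate 1 or any of the 3 WT mTEC libraries was left out (adjusted p 0.0751 to 0.109, range over the alternatives 7.96e-05 to 0.109).

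**Figure D1:**
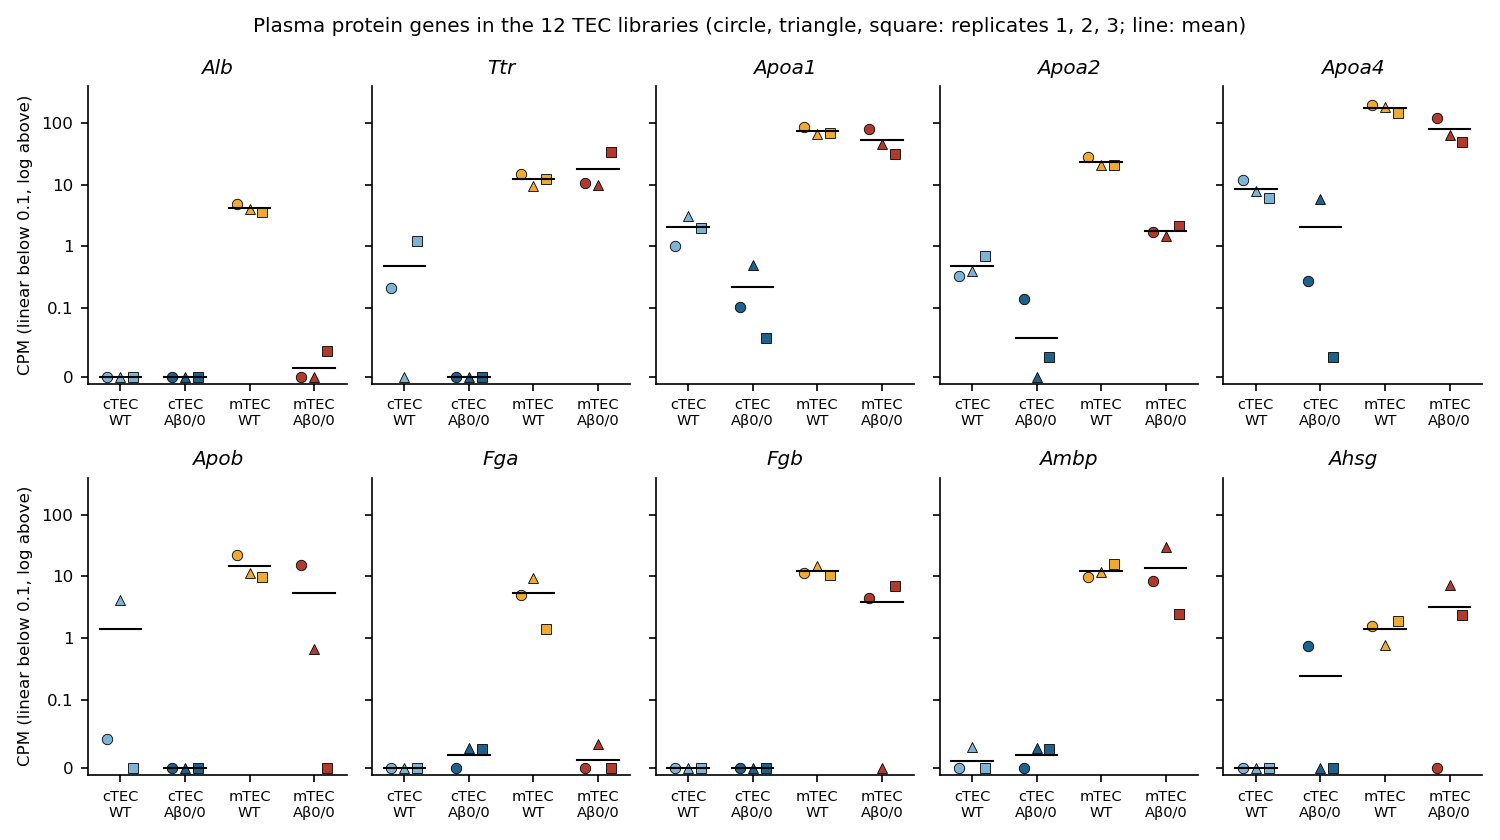
CPM of the 10 plasma protein genes in each of the 12 libraries, by subset and genotype, on an axis that is linear below 0.1 and logarithmic above. Symbols are replicates and lines are group means; all 10 genes sit higher in the 3 WT mTEC libraries than in the 3 WT cTEC libraries, and Alb and Fga are close to 0 in Aβ0/0 mTEC.

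The second question was whether mTEC that lack MHC class II transcribe these antigens at the same level. Of the 10 genes, 3 passed the test and were higher in WT mTEC (Alb, Apoa2 and Fga), none was lower, and 7 did not pass, where 5.32% of all 18636 genes tested were called higher in WT. In 5 genes (Alb, Apoa2, Apoa4, Fga and Fgb) every WT library lay above every Aβ0/0 library, against 18.0% of all genes. Alb and Fga were almost absent from Aβ0/0 mTEC, so they passed the filter on low counts through WT alone, while Apoa2 remained in every library at a lower level. Ttr, Ambp and Ahsg had overlapping libraries and a higher mean CPM in Aβ0/0, though in TPM the mean of Ambp was higher in WT (15.4 against 12.9). The median log2 fold change of the 10 genes was 1.31, beside 0.00 over all genes.

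Of the carriers, Alb had 119, 134 and 117 counts in WT mTEC and 0, 0 and 1 count in Aβ0/0 mTEC. The ratio of the scaled counts was 332 with a 95% interval of 59.2 to 13150, which covers counting error only, and the adjusted p was 0.0352 (edgeR). All 370 WT counts were on the protein-coding transcript, and the lone Aβ0/0 count was on a processed transcript without a coding sequence. Ttr measured 15.1, 9.64 and 12.3 CPM in the WT libraries against 10.7, 10.1 and 33.4 CPM in Aβ0/0. Only Aβ0/0 replicate 3 lay outside the WT range on the upper side, and the log2 fold change was -0.54 (SE 0.57, adjusted p = 0.772, edgeR). Without that library it was 0.25.

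The apolipoproteins did not move by the same amount. Apoa2 measured 28.2, 21.0 and 21.1 CPM in the WT libraries against 1.74, 1.46 and 2.12 CPM in Aβ0/0, with similar relative spread in both groups. Its mean was 13.2-fold higher in WT, with a log2 fold change of 3.73 (SE 0.46, adjusted p = 0.0352, edgeR). Apoa4 was at 198, 184 and 149 CPM against 122, 64.6 and 49.4 CPM, so that the groups did not overlap. The log2 fold change of Apoa4 was 1.17 (SE 0.35, adjusted p = 0.148, edgeR), and without Aβ0/0 replicate 1 it was 1.64 with an adjusted p of 0.0298 (range over the alternatives 0.0298 to 0.762). Apoa1 was at 86.0, 66.0 and 68.6 CPM against 80.0, 46.7 and 31.5 CPM, with overlap and a log2 fold change of 0.48 (SE 0.36, adjusted p = 0.635, edgeR). Apob measured 22.4, 11.5 and 9.77 CPM in the WT libraries against 15.5, 0.662 and 0 CPM in Aβ0/0, where replicate 1 lay inside the WT range and the others far below it. Its log2 fold change of 1.44 had an SE of 1.73 (adjusted p = 0.804, edgeR).

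The fibrinogen chains were both lower in Aβ0/0 mTEC by their means, but only Fga passed. Fga had 118, 320 and 45 counts in WT and 0, 1 and 0 in Aβ0/0, a ratio of 433 with a 95% counting interval of 77.4 to 17156 (adjusted p = 0.0352, edgeR). Fgb, the Bβ chain, had 276, 486 and 338 counts in WT and 112, 0 and 187 in Aβ0/0. The groups did not overlap in CPM, yet the log2 fold change was 1.67 with an SE of 1.495 (adjusted p = 0.719, edgeR).

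The inhibitors had Aβ0/0 libraries on either side of the WT range. Ambp measured 9.85, 11.5 and 15.6 CPM in the WT libraries against 8.50, 30.0 and 2.46 CPM in Aβ0/0, with a log2 fold change of -0.15 (SE 0.85, adjusted p = 0.973, edgeR). Ahsg had 37, 26 and 61 counts in WT and 0, 209 and 62 in Aβ0/0, with a log2 fold change of -1.19 (SE 1.67, adjusted p = 0.839, edgeR). Both changed sign without Aβ0/0 replicate 2, to 1.18 and 0.27.

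The calls of Alb, Apoa2 and Fga shared an adjusted p of 0.0352 with 684 genes in all, a value set by the adjustment, and they rested on every library but 1. Leaving out WT replicate 1, 2 or 3 or Aβ0/0 replicate 2 or 3 left 0 of the 10 genes called, while without Aβ0/0 replicate 1 there were 4. Of all genes tested, 0 were called without any 1 of the WT libraries, 44 of 19587 without Aβ0/0 replicate 2, 13 of 19916 without Aβ0/0 replicate 3 and 2377 of 19774 without Aβ0/0 replicate 1, so the calls were lost and gained across all genes. With the replicate number as a block, 0 of the 10 genes and 0 of 18636 genes were called (edgeR), and the adjusted p of Alb, Apoa2 and Fga was 0.230. The direction of these 3 did not change in any alternative, and their adjusted p values ranged from 1.59e-27 to 0.230 for Apoa2, from 3.64e-08 to 0.230 for Alb and from 1.75e-06 to 0.230 for Fga.

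The libraries of Aβ0/0 mTEC also differed from each other in which antigens they held. In WT mTEC all 10 genes had more than 3 counts in every library. In Aβ0/0 mTEC 5 genes did, 3 (Apob, Fgb and Ahsg) had more than 3 counts in 2 of the 3 libraries, and 2 (Alb and Fga) in none. Of all 18636 genes tested, 98.6% had more than 3 counts in all WT mTEC libraries and 76.1% in all Aβ0/0 mTEC libraries. A gene could pass the filter on low counts through a single group, as Alb and Fga did through WT. These shares therefore partly follow from the filter, and the spreads for all genes below are over the same genes. The coefficient of variation of CPM over the 3 libraries had a median of 19.9% for the 10 genes and 19.9% for all genes in WT, and in Aβ0/0 of 83.4% for the 8 genes with more than 3 counts over the 3 libraries and 47.0% for all genes with as many.

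No single Aβ0/0 library accounted for this. Replicate 1 was the highest for Apoa1, Apoa4 and Apob, and held 95.9% of the summed CPM of Apob. Replicate 2 was the highest for Ambp and Ahsg, with 73.2% and 75.6%. Replicate 3 was the highest for Ttr and Fgb, with 61.6% and 61.5%, and for Apoa2, with 39.8%. In Aβ0/0 the highest library held a median of 61.6% of a gene for these 8 genes and 48.4% for all genes with more than 3 counts, without Alb and Fga, whose single count sits in 1 library by necessity, beside 40.5% (10 genes) and 39.5% in WT. In WT mTEC the most uneven of the 10 was Fga, with 60.2% in replicate 2. Sorted cell number was lower in Aβ0/0 mTEC, and its part in this spread was not tested.

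**Figure D2:**
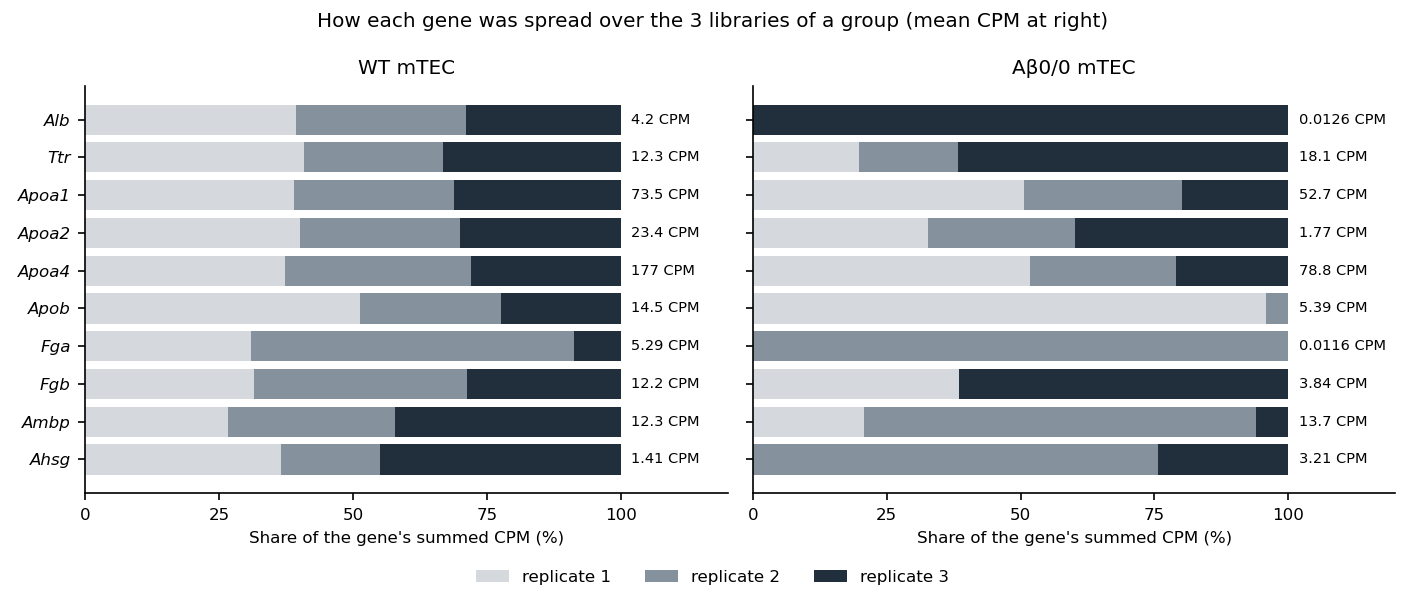
Share of each gene's summed CPM found in each of the 3 WT mTEC libraries (left) and the 3 Aβ0/0 mTEC libraries (right), with the group mean CPM beside each bar. In WT no library holds more than 51.3% of a gene except for Fga, with 60.2% in replicate 2, whereas Apob is 95.9% in replicate 1, Ambp 73.2% in replicate 2 and Ttr 61.6% in replicate 3 of Aβ0/0; the Aβ0/0 bars of Alb and Fga stand for 1 count each.

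Within Aβ0/0, the same subsets were compared. Of the 10 genes, 3 were called higher in mTEC than in cTEC (Ttr, Apoa1 and Ambp), none was lower, and 4 were not tested because of low counts, where 3.45% of 15687 genes were called higher in mTEC. Ttr had 271, 290 and 883 counts in mTEC and 0 in every cTEC library, at least 195-fold more (adjusted p = 0.0168, edgeR). Apoa1 was at 80.0, 46.7 and 31.5 CPM in mTEC and at 0.105, 0.506 and 0.0561 CPM in cTEC, with a log2 fold change of 7.84 (SE 1.00, adjusted p = 0.00685, edgeR). Ambp had 215, 861 and 65 counts in mTEC and 2 counts in cTEC in all, a ratio of 695 with a 95% counting interval of 192 to 5743 (adjusted p = 0.0254, edgeR).

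In 5 of the 10 genes every Aβ0/0 mTEC library lay above every Aβ0/0 cTEC library, against 15.0% of the genes tested. Apoa2 and Apoa4 were among them but missed the threshold, with log2 fold changes of 4.93 (SE 1.47) and 5.20 (SE 1.52) and adjusted p values of 0.110 and 0.105 (edgeR). Apoa4 in Aβ0/0 cTEC rested on 1 library, at 8, 201 and 1 counts, and without replicate 2 its log2 fold change was 9.03 with an adjusted p of 0.0163 (range over the alternatives 2.95e-05 to 0.219). Ahsg had 21, 0 and 0 counts in Aβ0/0 cTEC and overlapped with mTEC. Apob and Fgb, at 0 in each Aβ0/0 cTEC library, were at least 58.1-fold and at least 41.4-fold higher in mTEC by their means, but each had an mTEC library at 0 as well. Alb and Fga had at most 1 count in any Aβ0/0 library of either subset, so no fold is given. With the pool as a block only Apoa1 was called, and Ttr and Ambp had adjusted p values of 0.0790 and 0.0666 (edgeR; ranges over the alternatives 3.16e-13 to 0.0790 and 2.13e-10 to 0.213). Without Aβ0/0 mTEC replicate 3 the adjusted p of Ttr was 0.0703, and that of Ambp lay between 0.0535 and 0.0928 without any single library other than Aβ0/0 mTEC replicate 3.

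In cTEC, none of the 10 genes was called between genotypes by edgeR, where 0.0194% of 15432 genes were called. Only Apoa1, Apoa2 and Apoa4 had counts enough to be tested, and in each of them every WT cTEC library lay above every Aβ0/0 cTEC library, against 4.11% of all genes. Apoa1 had 24, 101 and 53 counts in WT and 3, 17 and 2 in Aβ0/0, with a log2 fold change of 3.20 (SE 1.36, unadjusted p = 0.0422, adjusted p = 1.00, edgeR). It was the only gene of the 10 with an unadjusted p under 0.05, against 2.16% of the genes tested. Apoa2 had 8, 13 and 18 counts against 4, 0 and 1, and Apoa4 had 287, 250 and 160 against 8, 201 and 1, with log2 fold changes of 3.08 (SE 1.44) and 2.05 (SE 1.496). Ttr had 5, 0 and 32 counts in WT cTEC and 0 in Aβ0/0 cTEC, and Apob 1, 131 and 0 against 0. Markers of mTEC were read beside these low levels. Of 10 tested mTEC markers, 0 were called between genotypes in cTEC and 2 had an unadjusted p under 0.05 (edgeR). Aire was at 2.70, 7.87 and 1.97 TPM in WT cTEC and at 1.15, 0.199 and 0.283 TPM in Aβ0/0 cTEC, with every WT library above every Aβ0/0 library (log2 fold change 3.36, SE 1.15, adjusted p = 1.00, edgeR). The summed level of the mTEC markers was 2503 to 4302 TPM in WT cTEC and 3605 to 5269 TPM in Aβ0/0 cTEC, with overlap. Yet 7 of the 10 tested markers had a positive log2 fold change of WT over Aβ0/0 (median 0.43, edgeR). Cd80 had 1 count in Aβ0/0 cTEC in all, a ratio of 104 with a 95% counting interval of 18.2 to 4149. Cd86 and Cd40 went the other way, with ratios of mean CPM of 0.721 and 0.360. The part of mTEC in the cTEC levels was not tested. DESeq2 on the 6 libraries called 0 of the 10 and limma on the rlog values 0, while DESeq2 on all 12 libraries called Apoa1, Apoa2 and Ttr, where it called 1.76% of the genes it tested.

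The difference of the genotype effect between mTEC and cTEC, as an interaction over all 12 libraries, was called for none of the 10 genes by edgeR, where 0.0103% of 19461 genes were called. For Alb and Fgb it could not be estimated because all cTEC libraries were at 0. The unadjusted p was under 0.05 for 3 genes, Fga, Ttr and Apoa1 (edgeR), against 6.90% of all genes. Apoa1 differed more between genotypes in cTEC than in mTEC by its values, with an interaction of -2.67 (SE 0.90, adjusted p = 0.510, edgeR), and Ttr had an interaction of -7.38 (SE 2.25, adjusted p = 0.456, edgeR). For Fga, WT over Aβ0/0 was larger in mTEC (10.8, SE 2.55, adjusted p = 0.377, edgeR), and the fitted values of Ttr and Fga depend on the prior count, since Ttr was at 0 in Aβ0/0 cTEC and Fga at or near 0 in 3 groups. DESeq2 called 2 of the 10, Ttr and Fga, and 1.98% of all genes, and limma on rlog called 3, Alb, Apoa2 and Fga, and 2.55% of all genes.

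Several of these genes lie beside others of the same kind. On chromosome 9, Apoa1 (46228580 to 46230466, plus strand, GRCm38) is followed by Apoc3 after 2.47 kb, then by Apoa4 (46240696 to 46243459, plus strand) and, 25.2 kb further, by Apoa5. Apoc3, an inhibitor of lipoprotein lipase, was at 82.1, 86.6 and 83.3 TPM in WT mTEC and at 90.5, 54.0 and 37.3 TPM in Aβ0/0 mTEC, with a log2 fold change of 0.34 (SE 0.35, adjusted p = 0.765, edgeR). Apoa5, which promotes triglyceride hydrolysis, was at 4.17, 2.80 and 0.81 TPM in WT mTEC and had 0 counts in each Aβ0/0 mTEC library, at least 35.4-fold less (adjusted p = 0.0414, edgeR). The cluster thus held 1 gene that was called and 3 that were not.

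The fibrinogen cluster on chromosome 3 holds Fgg, Fga (83026076 to 83033627, plus strand) and Fgb (83040141 to 83049863, minus strand), with 11.03 kb and 6.51 kb between them. Fgg, the γ chain, was at 22.0, 16.1 and 10.998 TPM in WT mTEC and at 0.65, 0 and 0 TPM in Aβ0/0 mTEC. All 3 chains thus had WT mTEC libraries above all Aβ0/0 mTEC libraries, against 18.0% of all genes tested. Fgg was not called, with a log2 fold change of 6.33 (SE 1.72, adjusted p = 0.105, edgeR). Aβ0/0 replicate 3 held Fgb at 187 counts with Fga and Fgg at 0, so the chains were not detected together there. Unlike Fga and Fgb, Fgg was also present in all cTEC libraries, at means of 3.49 TPM in WT and 5.83 TPM in Aβ0/0. The next gene beyond Fgb, Plrg1, which encodes a splicing factor, had a log2 fold change of -0.05.

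Alb (chromosome 5, 90460897 to 90476602, plus strand) is followed after 14.1 kb by Afp, the fetal counterpart of albumin. Afp had 124, 132 and 4 counts in WT mTEC and 0 in each Aβ0/0 mTEC library, at least 27.4-fold less, and did not pass the filter on low counts. Ahsg (chromosome 16, 22891277 to 22899449, plus strand) is followed after 18.9 kb by Fetub, or fetuin-B, at 21.3, 14.4 and 16.9 TPM in WT mTEC and 9.95, 11.4 and 14.3 TPM in Aβ0/0 mTEC (log2 fold change 0.39, SE 0.37, adjusted p = 0.738, edgeR). Fetub had counts in every Aβ0/0 mTEC library, also in replicate 1, where Ahsg had 0.

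Apoa2 (chromosome 1, 171225054 to 171226379, plus strand) is followed after 3.19 kb by Fcer1g, the common γ chain of Fc receptors, a gene of myeloid cells. Fcer1g was at 64.0, 69.0 and 41.8 TPM in WT mTEC and at 3.42, 4.10 and 1.04 TPM in Aβ0/0 mTEC, and it was called like Apoa2 (log2 fold change 4.19, adjusted p = 0.0352, edgeR). On the other side Tomm40l, of the mitochondrial import machinery, was not (log2 fold change 0.10, adjusted p = 0.963, edgeR). Ambp (chromosome 4, 63143275 to 63154799, minus strand) lies between Zfp618 and Kif12, and Kif12 was uneven in Aβ0/0 mTEC as well, at 41.0, 1.94 and 0.37 TPM, highest in replicate 1, whereas Ambp was highest in replicate 2. Apob (chromosome 12, 7977648 to 8016835, plus strand) has its nearest neighbour, Ldah, 191 kb away, and the neighbours of Apob and of Ttr were not called between genotypes in mTEC.

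**Figure D3:**
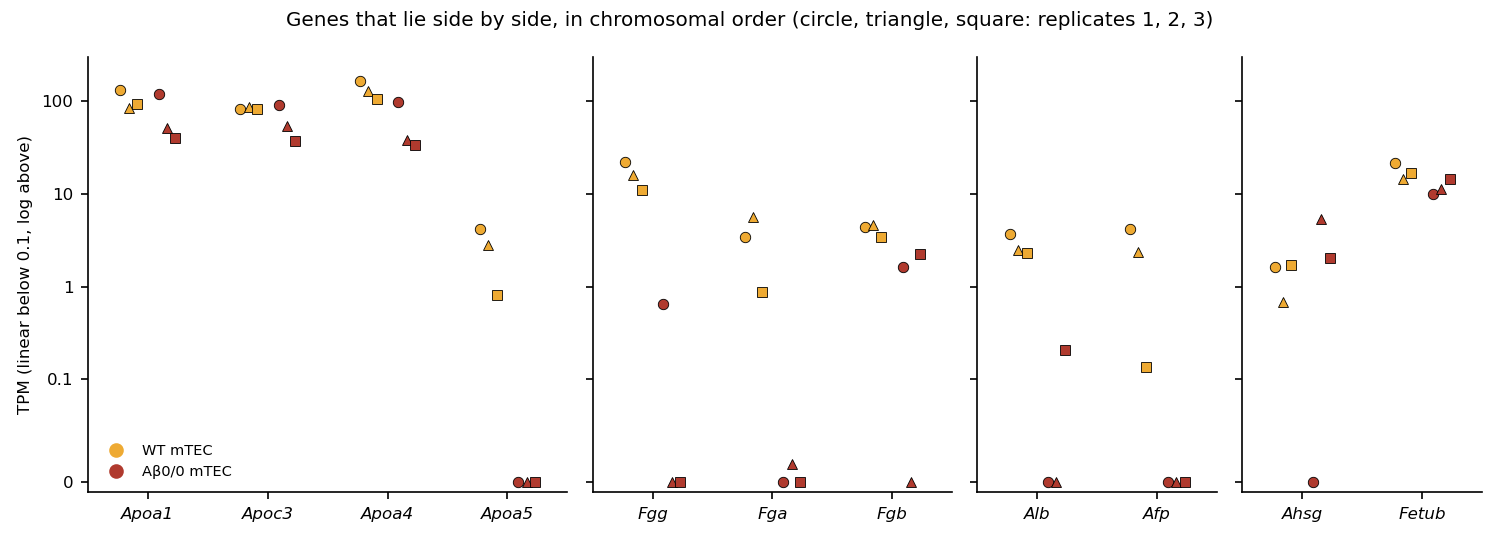
TPM of genes that lie side by side, in chromosomal order within each panel, in the 3 WT and the 3 Aβ0/0 mTEC libraries, on an axis linear below 0.1 and logarithmic above. Apoa1, Apoc3 and Apoa4 stay above 30 TPM in all 6 libraries while Apoa5 is at 0 in Aβ0/0, and Fga, Fgg, Alb and Afp are at or near 0 in Aβ0/0; the Aβ0/0 point of Alb at 0.21 TPM is 1 count on a short transcript.

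Among 88 other plasma protein genes, 69 were tested in mTEC between genotypes, and 6 were higher in WT, none lower, where 5.32% of all genes tested were called higher, with a median log2 fold change of 0.55. All 6 had 0 counts in every Aβ0/0 mTEC library, so they passed the filter on low counts through the WT libraries alone. They were Itih4 and A2m, protease inhibitors, at least 105-fold and at least 68.2-fold lower in Aβ0/0, Apoh, a phospholipid-binding apolipoprotein, at least 39.4-fold, Apoa5, F13b, the B subunit of coagulation factor XIII, at least 16.7-fold, and Masp1, a protease of the lectin pathway of complement, at least 9.22-fold (adjusted p 0.0352, and 0.0414 for Apoa5, edgeR). Read against the same 5.32%, the calls by kind were 2 of 10 tested apolipoproteins, 0 of 11 carriers, 1 of 14 coagulation genes, 2 of 14 inhibitors and 1 of 20 complement and acute phase genes. Not every plasma protein was lower: Crp, an acute phase pentraxin, averaged 90.2 TPM in WT and 90.1 TPM in Aβ0/0 mTEC, and Gc, the vitamin D carrier, 17.0 and 24.2 TPM. Of the 88 genes, 75 had more than 3 counts in all WT mTEC libraries and 34 in all Aβ0/0 mTEC libraries.

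Between WT mTEC and WT cTEC, 38 of 70 tested genes of these lists were higher in mTEC and 5 were lower, where 18.0% and 8.81% of all genes tested were. The 6 with the largest fitted log2 fold changes, which depend on the prior count where a group is at 0, were Cpn1, Itih4, Itih3, Itih1, Cpb2 and C8b, each at 0 in all WT cTEC libraries and between at least 35.2-fold (C8b) and at least 116-fold (Cpn1) higher in mTEC. Within Aβ0/0, 4 of 42 tested genes were higher in mTEC (Gc, Serpina7, Rbp4 and Crp) and 2 lower (Serpinf1 and Apoe), where 3.45% and 2.15% of all genes tested were. Rbp4, the retinol carrier that travels bound to transthyretin, was at 87.8, 27.2 and 51.4 TPM in WT mTEC and at 135.8, 17.4 and 8.91 TPM in Aβ0/0 mTEC, where replicate 1 lay above and the others below every WT library. Apoe, which directs lipoprotein uptake, was lower in mTEC, with means of 6346 TPM in WT cTEC and 1403 TPM in WT mTEC.

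Other liver genes were looked at beside the plasma proteins. Of 25 enzymes and receptors of hepatocytes, 22 were tested in mTEC between genotypes and 2 were higher in WT, Hal and Cyp2c29, against 5.32% of all genes tested, with a median log2 fold change of 1.52. Among those with the highest TPM in WT mTEC were Hal, which degrades histidine, with means of 105 TPM in WT and 31.3 TPM in Aβ0/0, and Tdo2, of tryptophan breakdown, at 27.2 and 5.47 TPM. The summed TPM of the 25 was 248 to 331 in WT mTEC and 76.9 to 144 in Aβ0/0 mTEC, without overlap. Slc10a1, the bile acid importer that marks hepatocytes, was between 0.785 and 0.971 TPM in WT mTEC and between 0.169 and 0.645 TPM in Aβ0/0 mTEC. Of the other surface proteins on that list, Asgr2 had a higher mean CPM in WT mTEC, with a ratio to Aβ0/0 of 10.7. Asgr1 and Slco1b2 had lower ones, with ratios of 0.583 and 0.639.

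Of the liver transcription factors, Cebpb and Cebpa, with C/EBP proteins as their products, did not pass, with log2 fold changes of 0.18 and 0.57. Of 14 enterocyte genes none was called, and 2 had an unadjusted p under 0.05 (edgeR), where 15.3% of all genes tested did. Reg3g, an antibacterial lectin, Cdx1, an intestinal homeobox factor, and Lgals4, a galectin, led that list with means of 4363, 198 and 88.1 TPM in WT mTEC and of 6776, 63.7 and 130 TPM in Aβ0/0 mTEC. Reg3g was at 15666, 3126 and 1535 TPM in Aβ0/0 mTEC, so that its higher mean rested on replicate 1 and the others lay below every WT library.

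**Figure D4:**
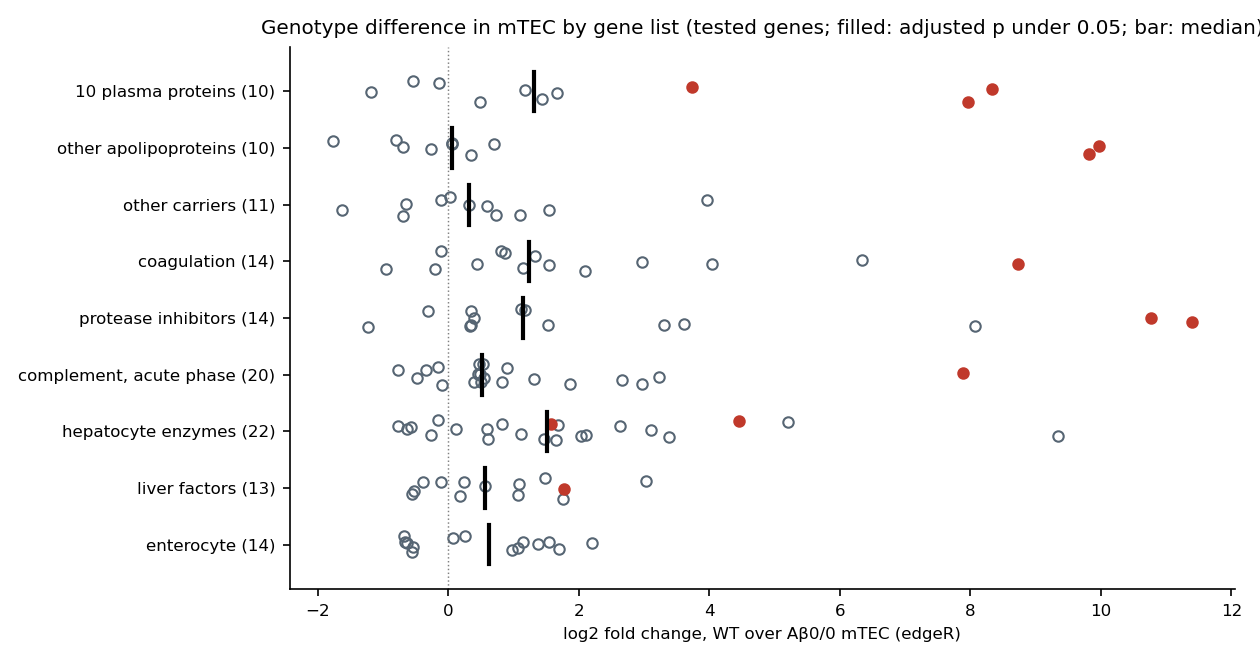
Log2 fold change of WT over Aβ0/0 in mTEC for the tested genes of each list (edgeR), with genes past an adjusted p of 0.05 filled and list medians as bars; the number of tested genes is in brackets. Calls are found in 7 of the 9 lists and all lie on the WT side; the values above 7 are of genes with 0 or 1 count in Aβ0/0 in all and depend on the prior count of the fit.

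Markers of other cells were read in the same mTEC libraries. Of 9 myeloid and B cell markers, 8 had a positive log2 fold change and 2, Adgre1 and Itgax, were called higher in WT, where 5.32% of all genes tested were. Adgre1, which encodes F4/80 of macrophages, was at 9.89, 4.19 and 8.33 TPM in WT mTEC and at 0 in Aβ0/0 mTEC. The median log2 fold change of the 9 was 3.37 (edgeR). Their summed level overlapped, at 630 to 689 TPM in WT mTEC and 108 to 744 TPM in Aβ0/0 mTEC, the highest in Aβ0/0 replicate 1. The sum of 10 thymocyte markers was 66.2 to 146 TPM in WT mTEC and 28.6 to 126 TPM in Aβ0/0 mTEC, and that of 6 erythroid markers 565 to 818 TPM and 209 to 1165 TPM. The sum of 8 stromal and endothelial markers was 118 to 160 TPM and 142 to 271 TPM, although 6 of the 8 had a positive log2 fold change (median 0.86, edgeR). The part of these cells in the levels of the plasma protein genes was not tested.

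Over the 12 libraries, the genes whose log2(CPM + 1) was most like that of each plasma protein gene came from many organs. Pearson's r is given as a description over 12 libraries that share 4 groups, among 16141 genes with a mean of at least 1 CPM. Alb was most like Rhox12, Omt2a and Cela3b (r from 0.999 to 1.00), of which Cela3b encodes a pancreatic elastase. Each of them averaged 0 CPM in Aβ0/0 mTEC, which their choice by likeness to Alb makes likely. Fga was most like Ccer2, Chrna2 and Acan (0.986 to 0.993), Acan being the core protein of cartilage proteoglycan. Apoa2 was most like Olfr624, Ces1g and Gm6264 (0.978 to 0.986). Apoa1 was most like Dmpk, Hamp and Cyp2a5 (0.988 to 0.989), Hamp being the iron hormone hepcidin, and Apoa4 like Csn2, Cyp2a5 and 5730507C01Rik (0.968 to 0.972), Csn2 being the milk protein β-casein. Ttr was most like Adamts13, Klrb1f and Atoh1 (0.978 to 0.989), and Apob like Spata18, 1520401A03Rik and 6820408C15Rik (0.978 to 0.982). Fgb was most like Tmprss11d, Kcnj12 and Raet1e (0.990 to 0.993), Ambp like Nlrc4, Xlr5c and Klhl41 (0.979 to 0.983) and Ahsg like Pcdh15, Gjb1 and Tsnaxip1 (0.904 to 0.918).

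The transcripts behind the gene levels were mostly single coding forms. In WT mTEC, Alb, Ttr, Apoa4, Fgb and Ahsg had 100% of their counts on 1 coding transcript, Apoa1 99.8%, Ambp 96.1%, Fga 93.7% and Apob 92.9%. Apoa2 was divided between coding transcripts, with 57.3% on the first and 40.6% on the fourth annotated form in WT mTEC and 17.7% and 60.6% in Aβ0/0 mTEC, the latter from 142 counts in all. Part of the Apoa4 transcript is identical over 523 and 508 bases to 2 annotated genes on the opposite strand, Gm10680 and Gm47528, and Ahsg shares up to 76 bases with the antisense gene Gm30505. The counting is not stated to use strand, and these antisense genes are not among the transcripts analysed here, so reads from them could not be told apart from Apoa4 or Ahsg. No other transcript matched the other 8 genes at the settings used.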

How the data were processed

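RNA was extracted from sorted cells, and the authors made polyA libraries with the SMART-Seq v4 Ultra low input kit, in which cDNA is amplified by PCR. Per the labels' processing notes, the authors used bcl2fastq 2.20.0, Trim Galore, kallisto 0.43 and DESeq2, with the build mm10; the transcript set is not given in the sources used here. The deposited estimated counts and the deposited TPM are kallisto values per transcript, and the deposited log2 values are regularized logarithms (rlog) per gene, which compress low values. Of 109282 transcripts, 107987 were matched to GENCODE M21 (GRCm38), and the others held at most 0.512% of the total of a library. Per gene, the estimated counts were summed and rounded.

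Genotypes were compared within subsets, subsets within genotypes, and the interaction over 12 libraries, by quasi-likelihood F tests in edgeR 4.0.16 (robust, TMM, filterByExpr) in R 4.3.3. P values were adjusted by Benjamini-Hochberg over all genes tested, with a threshold of 0.05. The SE is the absolute log2 fold change over the square root of F. Fold changes are WT over Aβ0/0 or mTEC over cTEC. Against a group at 0, a fold was computed from a floor of 3 counts per library. Against 1 to 3 counts in a group, the ratio of pooled counts is given with an exact 95% binomial interval. Alternatives used RLE size factors, no filter, DESeq2 1.42.0, edgeR on 12 libraries, a replicate block, coding transcripts, limma 3.58.1 on rlog and leaving out each library. The fit was tested on simulated data.

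Other steps used Python 3.11.15, pandas 2.3.3, numpy 2.4.6, scipy 1.17.1, matplotlib 3.10.9 and BLAST 2.17.0. Promoters were matched by symbol for 9 of the 10 genes. The 10 genes, the other lists and the tests were chosen with earlier results of these data known. The text names all 10 genes, H2-Ab1 and Aire, the called genes of the other plasma lists (at most the 6 largest per comparison), the partners Fgg, Apoc3, Afp, Gc and Fetub, the 3 highest of each liver or enterocyte list, the nearest coding genes and the 3 most alike genes; 2 genes of the liver lists are not reported here. Crp in the comparison of genotypes, Apoe and Rbp4 as examples of level, and the markers Cyp2c29, Slc10a1, Adgre1 and Itgax were added after their values were seen. The same holds for Asgr1, Asgr2, Slco1b2, Cd80, Cd86 and Cd40.

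cTEC and mTEC of a number and genotype were taken as 1 pool, since the study lists both subsets for each sorting. Deviations from the means of the groups correlated within a pool at 0.305, 0.0124 and 0.148 in WT (replicates 1, 2 and 3) and at 0.292, 0.139 and 0.0395 in Aβ0/0. The 12 libraries thus stand for 6 pools of animals, and within a group each library came from a separate pool as far as the labels tell. All 12 libraries were used. P values of the genotype comparisons then measure the spread between these pools. Those of the subset comparisons and of the interaction, without the block, treat the cTEC and mTEC libraries of a pool as independent.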

Additional observations from a re-analysis of the deposited data

How the results depend on the processing

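Depth limits the genes with few counts, since a library at 0 allows up to 3 counts, and with 3 libraries per group the count of calls in mTEC depended on the fit. Of the 10 genes, 3 were called between genotypes in mTEC, and 0 with no filter on low counts (27 of 27301 genes in all), 0 with edgeR on all 12 libraries (20 of 19461) and 0 with the replicate block (0 of 18636), while leaving out 1 library gave 0 to 4. The study lists WT and Aβ0/0 sortings under the same numbers without stating that they were paired, and the correlations of same-numbered mTEC libraries were 0.351, 0.155 and 0.0807, and those of cTEC were 0.304, -0.110 and 0.0159. In cTEC 0 were called, and 3 with DESeq2 on all 12 libraries, with 0 when any library was left out. Between subsets in WT 9 were called (4997 of 18667 genes in all), 7 with edgeR on all 12 libraries (2760 of 19461), where the calls of Ttr and Ahsg were lost, 8 with the replicate block (3820 of 18667) and 8 to 10 without 1 library. Within Aβ0/0 3 were called, 7 with DESeq2 on the 6 libraries (2760 of 16154 genes in all), 6 with edgeR on all 12 libraries (1819 of 19461), 7 with DESeq2 on all 12 libraries (3938 of 19429), 1 with the replicate block (630 of 15687, where 878 were called without it) and 2 to 3 without 1 library. For the interaction 0 were called, 2 with DESeq2 and 3 with limma on rlog. The cause of these moves was not tested, except that leaving out a library or blocking leaves fewer degrees of freedom.

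No call reversed. Uncalled log2 fold changes of WT over Aβ0/0 in mTEC changed sign in some settings. Without 1 library, Ttr ranged from -0.83 to 0.25, Ambp from -0.65 to 1.18 and Ahsg from -1.77 to 0.27. Ambp was 0.45 with the replicate block and 0.43 with limma on rlog, and Ahsg 0.10 with the block. The interaction of Apoa2 ranged from -0.93 to 1.22 without 1 library, that of Ambp from -0.039 to 2.39 and that of Ahsg from -1.16 to 6.10. With limma on rlog the interaction was 1.09 for Apob and -0.091 for Ahsg. Of 558 values of single genes under the alternatives, 488 kept their direction and their side of the threshold, 41 lost and 17 gained a call, 11 changed sign, and 1 value with no test moved, the log2 ratio of the Alb means in mTEC, which was 5.36 from TPM, where the lone Aβ0/0 count lies on a short transcript.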
